A study of Mus musculus with 32 samples.

Results

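The circadian clock genes are 10 of the 31053 genes in the deposited feature list: Arntl, Per1, Per2, Per3, Ciart, Nr1d1, Nr1d2, Bhlhe40, Dbp and Tef. They were found by symbol, and all 10 were present. They had been chosen by their UMI levels (a UMI is a count of 1 captured RNA molecule) in these same libraries and cell classes, so their ratios are descriptions and carry no test. The cells came from the stromal vascular fraction of epididymal fat, the cells left once adipocytes are removed, of C57BL/6 mice. Each diet, high fat (HFD) or normal (ND) for 16 weeks, had a library labelled CD169-DTR and a library labelled WT. In CD169-DTR mice the receptor for diphtheria toxin (DT) is made where CD169 (Siglec1), a lectin of tissue-resident macrophages, is made. Mice of all 4 groups, the WT ones included, received DT for 7 days. CD45+ and CD45- cells were sorted separately and joined in equal parts, and most F4/80hi macrophages and Ly6Chi monocytes were left out by the sort. Each group was 1 library (8 sequencing records each, 32 in all). How many mice each held, their age and sex and the hour of collection are not given in the sources used here. Within each pair, the hour of collection, the mouse and the label cannot be told apart.

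The clock is a feedback loop that runs in nearly every cell. The activator BMAL1, encoded by Arntl, pairs with CLOCK and binds E-box sequences at its target genes, among them the Per, Cry, Nr1d, Ciart and Dbp genes. PER and CRY proteins, and CIART and BHLHE40, repress that pair, and the nuclear receptors NR1D1 and NR1D2 repress Arntl, so that Arntl and the E-box genes peak at opposite times of day. DBP and TEF are output factors that bind D-box sequences. Per1, Per2 and Bhlhe40 also answer acute signals such as stress hormones. In fat the loop is known to run in adipocytes and stromal cells and to set daily rhythms of lipid handling.

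Siglec1 was at 190 UMIs in the HFD library labelled DTR, against 51 in HFD WT, and at 113 in ND DTR, against 5 in ND WT. In the macrophage gate it was at 11.6 CPM in HFD DTR, against 5.37 CPM in HFD WT, and at 14.4 CPM in ND DTR, against 0.530 CPM in ND WT. CPM is a gene's UMIs over all UMIs of the same cells and library, scaled to a common total. The gene that drives the receptor was therefore higher in both libraries labelled DTR after the toxin, which goes against what the labels lead one to look for. The groups are accordingly called the libraries labelled DTR and WT. After filtering, 5627 cells (62726990 UMIs) remained in HFD DTR, 5120 (45660703) in HFD WT, 3599 (32343124) in ND DTR and 4982 (35931775) in ND WT. Cell barcodes recurred between libraries: 157 between ND DTR and ND WT, 30 between HFD DTR and HFD WT, and 30 to 110 in the other 4 pairs. Among the cells kept, those with such a barcode were 113 in HFD DTR, 79 in HFD WT, 168 in ND DTR and 258 in ND WT. In ND DTR they held 17.7% of all UMIs, and in its macrophage gate 38 of 142 cells and 59.4% of UMIs. The values for the Nr1d1-rich cells, their subsets and the main ratios in these gates are therefore also given without them. That removal is uneven between labels. The fibroblast and macrophage cells removed had medians of 29345 and 39698 UMIs in ND DTR, but 556.5 and 629.5 in ND WT. They held 14.6% and 59.4% of the UMIs of these gates in ND DTR, and 1.08% and 4.97% in ND WT. On HFD the macrophage gate was the other way, with 3.04% in DTR and 15.3% in WT.

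Cells were put in classes by markers that include no clock gene. The fibroblast or progenitor gate held 2809 cells in HFD DTR, 1780 in HFD WT, 1105 in ND DTR and 1099 in ND WT, and the macrophage gate held 388 in HFD DTR, 499 in HFD WT, 142 in ND DTR and 214 in ND WT. The fibroblast gate was led by Lum, Col1a1 and Dpt, and those of the macrophage gate by C1qb, C1qa and C1qc. NK, T, B and type 1 dendritic cells also had at least 50 cells in every library. Endothelial cells had 15 in HFD DTR and 333 to 573 in the others. A ratio is given where a gene had at least 50 UMIs in a class over both libraries, counted before any later removal of cells. Intervals are 95% and cover counting error only, not the spread between mice.

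Promoters of 3 members show the elements through which the loop is wired. They run from 250 bases before the start to 50 bases after it in RefSeq on GRCm38.p6, with the motif in capitals. Ciart (chr3:95882179-95882478, minus strand) holds 3 copies of the E-box CACGTG, at 116, 58 and 44 bases before the start. Per3 (chr4:151044616-151044915, minus strand) holds 2 copies of the D-box TTATGTAA, at 205 and 158 bases before it. Nr1d1 (chr11:98775328-98775627, minus strand) holds 1 E-prime box CACGTT, 28 bases before the start and on the opposite strand, so that it reads AACGTG as printed.
Ciart: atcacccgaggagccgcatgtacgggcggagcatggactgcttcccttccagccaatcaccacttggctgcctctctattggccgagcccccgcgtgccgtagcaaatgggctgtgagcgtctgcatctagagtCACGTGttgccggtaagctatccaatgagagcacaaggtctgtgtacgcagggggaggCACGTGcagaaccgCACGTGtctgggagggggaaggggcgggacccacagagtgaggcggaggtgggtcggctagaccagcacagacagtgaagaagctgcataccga
Per3: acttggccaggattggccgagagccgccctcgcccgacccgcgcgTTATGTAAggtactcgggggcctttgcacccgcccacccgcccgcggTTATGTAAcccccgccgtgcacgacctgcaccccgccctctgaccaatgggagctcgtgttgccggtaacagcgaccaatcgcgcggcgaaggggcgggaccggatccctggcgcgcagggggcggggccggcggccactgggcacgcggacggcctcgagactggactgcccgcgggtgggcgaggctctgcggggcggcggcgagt
Nr1d1: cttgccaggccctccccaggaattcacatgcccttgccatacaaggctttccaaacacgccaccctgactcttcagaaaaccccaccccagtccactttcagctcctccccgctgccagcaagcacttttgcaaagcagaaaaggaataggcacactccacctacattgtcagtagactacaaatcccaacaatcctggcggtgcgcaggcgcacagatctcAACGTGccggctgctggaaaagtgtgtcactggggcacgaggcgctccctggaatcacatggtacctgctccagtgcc
Of all 32851 promoters in the table, 7.15% held the E-box, 4.68% the E-prime box and 0.938% the D-box on either strand. In all, 11 promoters of 8 members were given there. The E-box was also found in 1 of 2 promoters of Per1 and in both of Tef, and the ROR element TAGGTCA in 1 of 2 of Arntl, against 2.61% of all promoters. No promoter of a member held the cAMP response element TGACGTCA, found in 1.79% of all, and those of Dbp and Nr1d2 held none of these letters. A match is a description of the sequence, not of binding.

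Over all cells, the output factor gene Dbp was at 58.9 CPM in HFD DTR, against 4.51 CPM in HFD WT, and at 29.1 CPM in ND DTR, against 5.37 CPM in ND WT. Nr1d1, which encodes the repressor of Arntl, was at 70.8 CPM in DTR against 7.29 CPM in WT on HFD and at 51.6 CPM in DTR against 5.34 CPM in WT on ND. Ciart, a repressor of the CLOCK and BMAL1 pair, was at 13.0 CPM in DTR against 1.38 CPM in WT on HFD and at 13.2 CPM in DTR against 1.42 CPM in WT on ND. For each of these 3 genes both libraries labelled DTR stood above both labelled WT. Per1 was at 104 CPM in HFD DTR against 43.8 CPM in HFD WT, and at 65.1 CPM in ND DTR against 36.4 CPM in ND WT. Arntl, the activator, differed far less, with 25.7 CPM in HFD DTR against 29.9 CPM in HFD WT, and 27.3 CPM in ND DTR against 24.7 CPM in ND WT. Period genes Per2 and Per3 lay between 3.80 and 7.94 CPM in all 4 libraries, with no order by label shared by the 2 diets for Per3.

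These levels mix classes whose shares differ between libraries, so each class is described alone, with CPM taken over the UMIs of that class. In the fibroblast gate Nr1d1 was at 53.6 CPM in HFD DTR, against 3.84 CPM in HFD WT, and at 29.7 CPM in ND DTR, against 2.78 CPM in ND WT. Set as DTR over WT, its log2 ratio was 3.80 (3.48 to 4.15) on HFD and 3.42 (2.87 to 4.02) on ND. Nr1d1 overlaps the thyroid hormone receptor gene Thra on the opposite strand, and no source used here says whether the counting used strand. Thra itself was lower in fibroblasts labelled DTR, at 85.7 CPM in DTR against 118 CPM in WT on HFD and 108 CPM in DTR against 145 CPM in WT on ND. Nr1d2, the relative of Nr1d1, was at 19.9 CPM in DTR against 11.2 CPM in WT on HFD and 17.2 CPM in DTR against 9.74 CPM in WT on ND, with log2 ratios of 0.83 (0.61 to 1.05) and 0.82 (0.48 to 1.17).

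Dbp was at 66.7 CPM in HFD DTR fibroblasts, against 4.14 CPM in HFD WT, and at 21.7 CPM in ND DTR, against 7.95 CPM in ND WT. Its log2 ratio was 4.01 (3.70 to 4.34) on HFD and 1.45 (1.09 to 1.82) on ND, and 0.47 on ND without the cells of shared barcodes. Tef, the other output factor, did not follow it on both diets: 17.6 CPM in HFD DTR against 13.4 CPM in HFD WT, but 11.9 CPM in ND DTR against 21.4 CPM in ND WT. Its ratio was 0.40 (0.19 to 0.61) on HFD and -0.85 (-1.14 to -0.55) on ND. Ciart was counted in 276 UMIs in HFD DTR, against 1 in HFD WT, and in 55 UMIs in ND DTR, against 4 in ND WT. Its log2 ratio of 7.12 (4.63 to 12.4) on HFD and 3.28 (1.84 to 5.20) on ND rests on those few WT molecules.

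Of the period genes, which encode the core repressors, Per1 was at 104 CPM in HFD DTR fibroblasts, against 32.4 CPM in HFD WT, and at 58.4 CPM in ND DTR, against 21.5 CPM in ND WT. Its log2 ratio was 1.68 (1.56 to 1.81) on HFD and 1.44 (1.23 to 1.67) on ND. Per2 was at 10.4 CPM in DTR against 10.2 CPM in WT on HFD and 7.98 CPM in DTR against 8.65 CPM in WT on ND, and both intervals of its ratio included 0. Per3 was on opposite sides by diet, with 8.67 CPM in DTR against 5.33 CPM in WT on HFD, a log2 ratio of 0.70 (0.38 to 1.03), and 4.90 CPM in DTR against 8.45 CPM in WT on ND, a log2 ratio of -0.79 (-1.26 to -0.31). Bhlhe40, a repressor that also answers acute signals, was at 262 CPM in HFD DTR against 194 CPM in HFD WT, and at 225 CPM in ND DTR against 132 CPM in ND WT. The activator gene Arntl was lower in HFD DTR, at 32.1 CPM against 49.1 CPM in HFD WT, with a log2 ratio of -0.61 (-0.73 to -0.49). On ND it was at 38.3 CPM in DTR against 42.0 CPM in WT, a log2 ratio of -0.14 (-0.32 to 0.05).

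**Figure D1:**
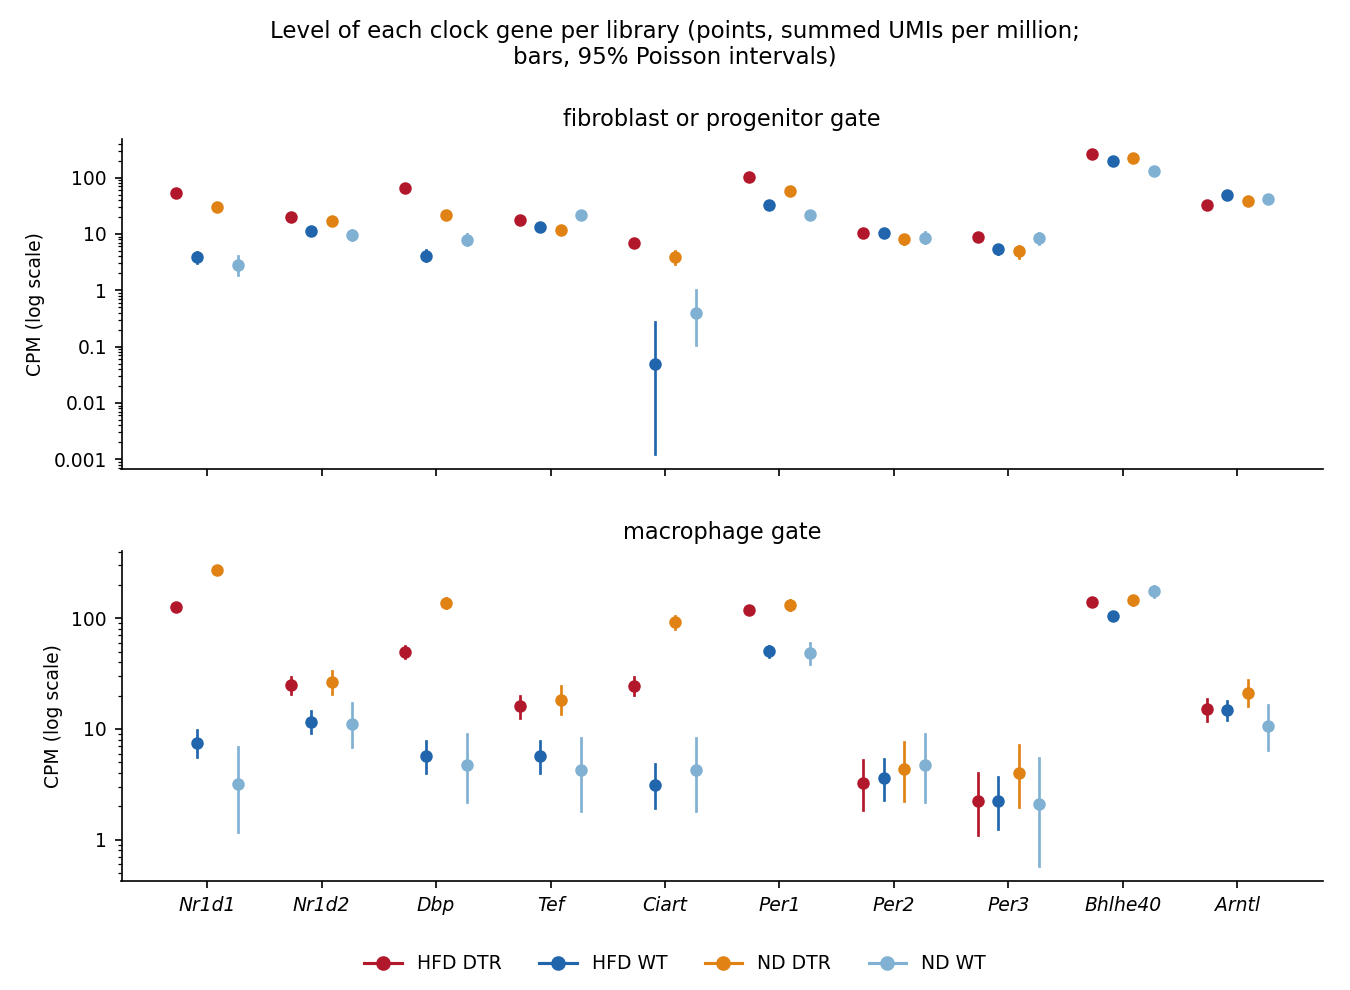
Level of each of the 10 clock genes in the fibroblast or progenitor gate (top) and the macrophage gate (bottom), in CPM on a log axis, 1 point per library with its 95% Poisson interval. Nr1d1, Dbp, Ciart and Per1 lie higher in both libraries labelled DTR (red, orange) than in both labelled WT (blues) in both gates, while Per2 does not.

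In the fibroblast gate all 10 members had the 50 UMIs needed in both pairs of libraries. On HFD 4 of 10 (Nr1d1, Dbp, Ciart and Per1) were over 2-fold higher in DTR, where 17.0% of all 12573 genes measured there were, and none was 2-fold lower, against 3.74%. On ND these 4 were over 2-fold higher too, where 6.83% of 11026 genes were, and none was 2-fold lower, against 3.05%. Without the cells of shared barcodes 3 of the 4 stayed past 2-fold on ND, Nr1d1 at 2.84, Ciart at 2.79 and Per1 at 1.32, while Dbp was at 0.47. Ciart then had 34 UMIs in ND DTR and fewer than the 50 needed over both libraries. The members' median log2 ratio was 0.76 on HFD and 0.79 on ND, beside 0.33 and 0.11 over all genes measured. Since the members were chosen on these libraries, nothing is read from those counts.

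In the macrophage gate Nr1d1 was at 127 CPM (626 UMIs) in HFD DTR, against 7.45 CPM (50 UMIs) in HFD WT, and at 276 CPM (763 UMIs) in ND DTR, against 3.18 CPM (6 UMIs) in ND WT. Its log2 ratio was 4.09 (3.67 to 4.54) on HFD and 6.44 (5.31 to 7.89) on ND. A single ND DTR cell of 85878 UMIs held 356 of the 763 Nr1d1 UMIs, and with the cell holding most left out of each library the ND ratio was 5.82. Without the cells of shared barcodes it was 4.82 on ND and 3.63 on HFD. Thra, the overlapping gene, was between 11.7 and 14.5 CPM in the macrophages of all 4 libraries.

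Dbp was at 49.7 CPM in HFD DTR macrophages, against 5.66 CPM in HFD WT, and at 138 CPM in ND DTR, against 4.77 CPM in ND WT. Ciart was at 24.5 CPM in DTR against 3.13 CPM in WT on HFD and at 91.7 CPM in DTR against 4.24 CPM in WT on ND. Their log2 ratios were 3.13 (2.64 to 3.67) and 2.97 (2.29 to 3.71) on HFD, and 4.86 (3.92 to 6.00) and 4.44 (3.44 to 5.66) on ND. Without the cells of shared barcodes the ND values were 3.43 for Dbp and 3.94 for Ciart. Tef, which went opposite ways by diet in fibroblasts, was higher in DTR macrophages on both, at 16.0 CPM in DTR against 5.66 CPM in WT on HFD and 18.4 CPM in DTR against 4.24 CPM in WT on ND. Without shared barcodes its ND log2 ratio was 2.04, on 18 UMIs in DTR and under the 50 UMIs over both libraries otherwise needed.

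Per1 was at 119 CPM in HFD DTR macrophages, against 50.2 CPM in HFD WT, and at 133 CPM in ND DTR, against 48.2 CPM in ND WT, with log2 ratios of 1.24 (1.05 to 1.44) and 1.46 (1.12 to 1.81), the ND one 1.34 without shared barcodes. Nr1d2 was at 24.7 CPM in HFD DTR against 11.6 CPM in HFD WT, and at 26.4 CPM in ND DTR against 11.1 CPM in ND WT. Its ND log2 ratio of 1.25 became 0.51 without the cells of shared barcodes. Arntl was level on HFD, at 15.0 CPM in DTR against 14.8 CPM in WT. On ND it was at 21.3 CPM in DTR against 10.6 CPM in WT, a log2 ratio of 1.01 (0.26 to 1.82) that became 0.13 without the shared barcodes. Without those barcodes ND DTR macrophages held 17 UMIs of Nr1d2 and 13 of Arntl. Both genes were then under the 50 UMIs otherwise needed for a ratio. Per2 and Per3 had too few UMIs for a ratio in either pair, and their levels lay between 2.12 and 4.77 CPM in all 4 libraries. Of the 8 members measured, 6 were over 2-fold higher in DTR on HFD, where 10.3% of 9127 genes were, and 7 on ND, where 16.2% of 7155 genes were. No member was 2-fold lower, against 2.93% of genes on HFD and 4.47% on ND. The members that passed the UMI minimum in macrophages did so in part through the DTR library where they were high.

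Of the other classes, T cells alone had enough Nr1d1 UMIs for a ratio in both pairs of libraries. In T cells Nr1d1 was at 33.1 CPM in HFD DTR against 32.2 CPM in HFD WT, and at 27.1 CPM in ND DTR against 23.2 CPM in ND WT, with log2 ratios of 0.04 (-0.88 to 0.86) and 0.22 (-0.71 to 1.10). A single HFD WT T cell held 25 of that library's 66 Nr1d1 UMIs in the class. T cells labelled WT thus had Nr1d1 at a higher CPM than fibroblasts or macrophages labelled WT on the same diet. The T cell intervals of Nr1d1 lay below its fibroblast and macrophage ratios on both diets. NK cells held too few Nr1d1 UMIs for a ratio, 2 in HFD DTR and none in HFD WT, and 11 in ND DTR and 1 in ND WT. Dbp in NK cells was at 7.78 CPM (6 UMIs) in HFD DTR against 6.74 CPM (6 UMIs) in HFD WT, and at 13.5 CPM (26 UMIs) in ND DTR against 4.28 CPM (4 UMIs) in ND WT, too few for a ratio. Ciart had 6 UMIs in HFD DTR NK cells, against 0 in HFD WT, and 54 in ND DTR, against 4 in ND WT. The ND log2 ratio of Ciart in NK cells was 2.71 (1.27 to 4.64), so on ND the DTR library was higher for Ciart in NK cells too. In B and type 1 dendritic cells Nr1d1 had 0 to 3 UMIs and Dbp 0 to 7 UMIs in any library, too few for a ratio. A small difference could not be detected there. All UMIs of type 1 dendritic cells were 497538 in HFD DTR and 597323 in ND DTR, and those of B cells 202561 and 470389. In endothelial cells, compared on ND alone, Nr1d1 was at 15.5 CPM (18 UMIs) in ND DTR and 6.13 CPM (14 UMIs) in ND WT, and Dbp at 7.77 CPM in ND DTR and 7.00 CPM in ND WT.

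Per1 was the member measured most widely with a high ratio. It was higher in DTR in 5 of 6 classes on HFD, with log2 ratios from -0.10 to 1.68 and a median of 0.54, and in 5 of 7 classes on ND, from -0.39 to 1.56 with a median of 0.47. On ND the 3 stromal or macrophage classes lay together, at 1.56 (0.95 to 2.20) in endothelial cells, 1.46 in macrophages and 1.44 in fibroblasts. NK cells followed, at 0.47 (0.05 to 0.91) on ND and 0.53 (0.02 to 1.04) on HFD. In T cells the ratio was 0.45 on HFD and 0.19 on ND, and in B cells -0.10 and -0.39, with intervals that included 0. In type 1 dendritic cells it was 0.56 on HFD and -0.32 on ND, again with intervals that included 0.

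Nr1d2 was higher in DTR in 3 of 3 classes on HFD, with a median log2 ratio of 0.83, and in 4 of 5 on ND, with a median of 0.59 and a range of -0.30 to 1.25. Tef was higher in 2 of 2 classes on HFD and in 2 of 4 on ND, with an ND median of -0.22. Bhlhe40 and Arntl differed in direction between classes. For Bhlhe40 the log2 ratio was 0.43 in fibroblasts and 0.43 in macrophages on HFD, but -0.05 in NK cells. On ND it was 0.77 in fibroblasts, 0.50 in NK cells, -0.27 in macrophages and -0.80 in B cells, and the B cell ratio on HFD was 1.36. Outside fibroblasts and macrophages, Arntl was at -0.57 (-1.25 to 0.06) in endothelial cells and 0.63 (-0.13 to 1.36) in T cells on ND, and at 0.42 (-0.48 to 1.25) in T cells on HFD, with intervals that included 0.

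**Figure D2:**
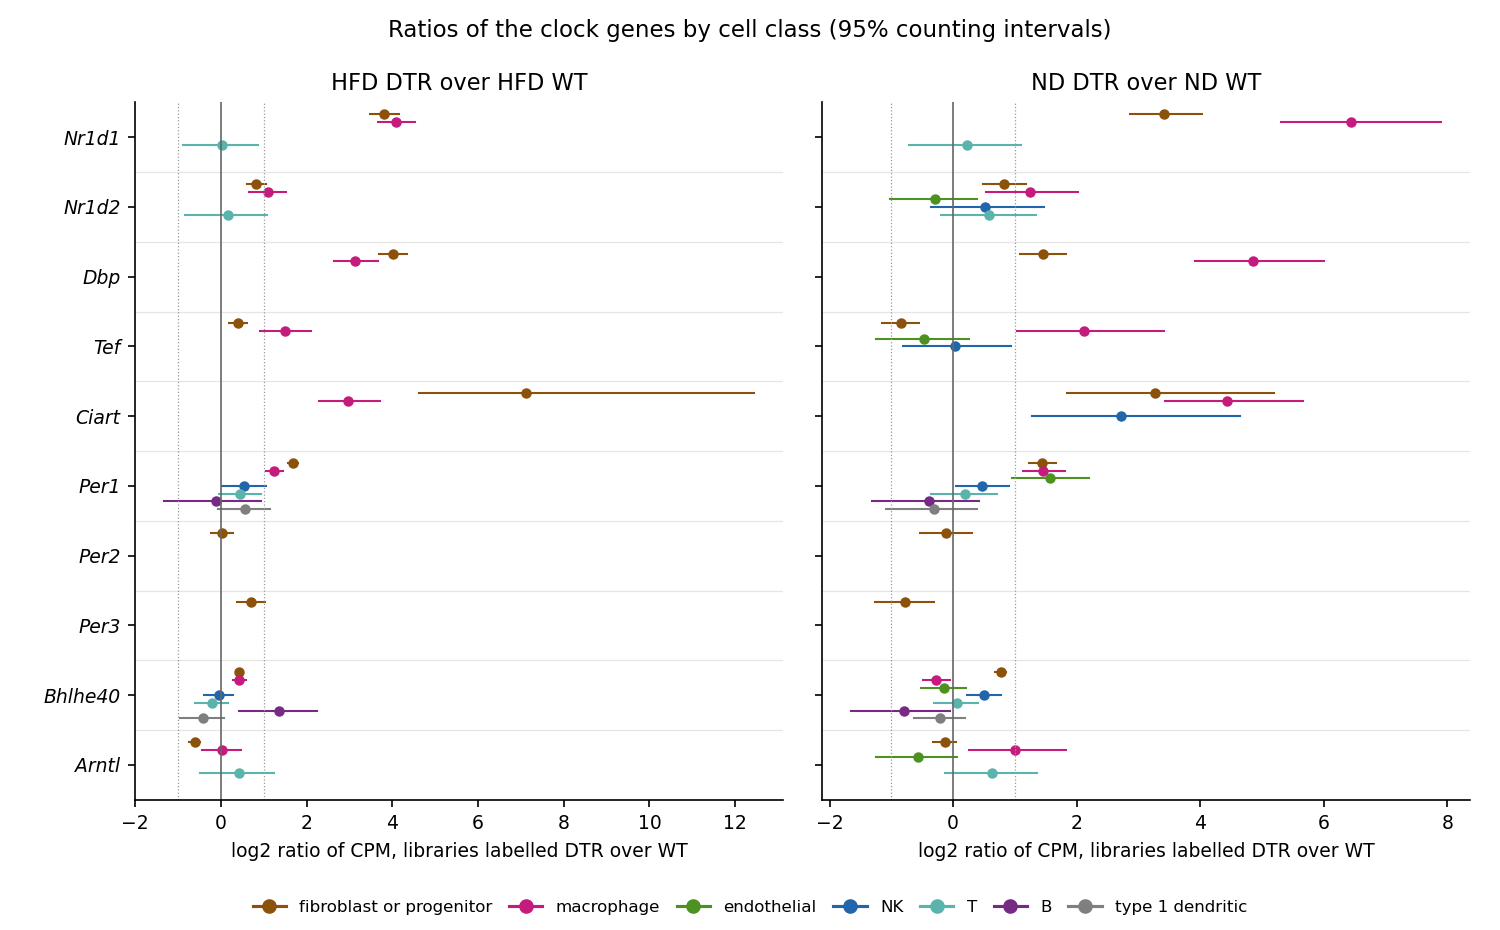
Log2 ratios of CPM of the libraries labelled DTR over WT on HFD (left) and ND (right) for each clock gene, 1 point per cell class with at least 50 UMIs of the gene and 50 cells per library, with 95% counting intervals and dotted lines at 2-fold. For Nr1d1 the fibroblast and macrophage points lie between 3.42 and 6.44, apart from the T cell points at 0.04 and 0.22.

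A member was measured in at least 4 classes for 2 genes on HFD (Per1 and Bhlhe40) and for 5 on ND. None of them had a median over classes past 2-fold, where 2.02% of 4658 genes on HFD and 1.72% of 5770 genes on ND had. None had the same direction in every class measured, where 20.8% of genes on HFD and 12.3% on ND did. Nr1d1, Dbp and Ciart, the members with the largest ratios, could be measured in 2 or 3 classes only, which is where their UMIs were. Their median over the classes measured was past 2-fold on both diets. The share over all genes was not taken for genes measured in so few classes.

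The Per1 difference was spread over many fibroblasts. A Per1 UMI was found in 1799 of 2809 HFD DTR fibroblasts (64.0%), against 435 of 1780 in HFD WT (24.4%), and in 403 of 1105 in ND DTR (36.5%), against 163 of 1099 in ND WT (14.8%). With each cell thinned to 2000 UMIs the shares were 17.6% in HFD DTR, 5.99% in HFD WT, 9.75% in ND DTR and 4.50% in ND WT. Nr1d1 was otherwise: thinned, a UMI was found in 4.06% of HFD DTR fibroblasts, 0.356% in HFD WT, 1.78% in ND DTR and 0.300% in ND WT. In thinned macrophages the Nr1d1 shares were 10.5% in HFD DTR, 2.69% in HFD WT, 10.1% in ND DTR and 0.599% in ND WT. No class is known to lack the clock, so free RNA has no blank class here. In thinned NK cells the share was 0.685% in HFD DTR, 0% in HFD WT, 0.758% in ND DTR and 0% in ND WT. In thinned B cells it was 0 of 40 in HFD DTR, 1.06% in HFD WT, 0 of 63 in ND DTR and 0.330% in ND WT. Median UMIs per cell before thinning were 3033 to 3922 in NK cells, 9556 to 12804 in fibroblasts and 8556 to 12903.5 in macrophages.

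Few cells held most Nr1d1 molecules. Cells of at least 5 Nr1d1 UMIs, here called Nr1d1-rich, were 195 of the 5627 HFD DTR cells (3.47%), 8 of 5120 in HFD WT (0.156%), 47 of 3599 in ND DTR (1.31%) and 3 of 4982 in ND WT (0.0602%). The limit of 5 was set after the values were seen, and the cells are a range of counts and not a cell type. In HFD DTR 68 cells had 3 or 4 such UMIs and 42 had 5 or 6, and in ND DTR 14 and 4 cells did. In the fibroblast gate 109 of 2809 cells were Nr1d1-rich in HFD DTR (3.88%, exact interval 3.20 to 4.66), against 0 of 1780 in HFD WT, which allows up to 0.207%. On ND they were 17 of 1105 in DTR (1.54%, 0.899 to 2.45), against 1 of 1099 in WT (0.0910%). In the macrophage gate they were 31 of 388 in HFD DTR (7.99%, 5.49 to 11.1), against 0 of 499 in HFD WT, and 16 of 142 in ND DTR (11.3%, 6.58 to 17.7), against 0 of 214 in ND WT. By that choice they held 81.6% to 97.1% of the Nr1d1 UMIs in the fibroblast and macrophage gates of the libraries labelled DTR. NK, B and type 1 dendritic cells held no such cell in any library. T cells held 1 of 218 in HFD DTR, 2 of 475 in HFD WT and none on ND.

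Nr1d1-rich cells were deep, with a median of 25014 UMIs in HFD DTR and 30855 in ND DTR fibroblasts, so the share was also taken among cells of at least 10000 UMIs. There it was 5.13% in HFD DTR fibroblasts (101 of 1969), against 0 of 1112 in HFD WT, and 1.92% in ND DTR (14 of 730), against 1 of 495 in ND WT. Among deep macrophages it was 14.2% in HFD DTR (27 of 190), against 0 of 238 in HFD WT, and 18.0% in ND DTR (16 of 89), against 0 of 80 in ND WT. NK cells had only 4 to 21 cells of that depth per library, so their lack of such cells is not comparable. Of the Nr1d1-rich cells, 21 of 195 in HFD DTR and 26 of 47 in ND DTR had a barcode found in another library. Without shared barcodes they were 3.71% of HFD DTR fibroblasts and 7.65% of HFD DTR macrophages, and in ND DTR 0.677% of fibroblasts (7 of 1034) and 3.85% of macrophages (4 of 104).

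**Figure D3:**
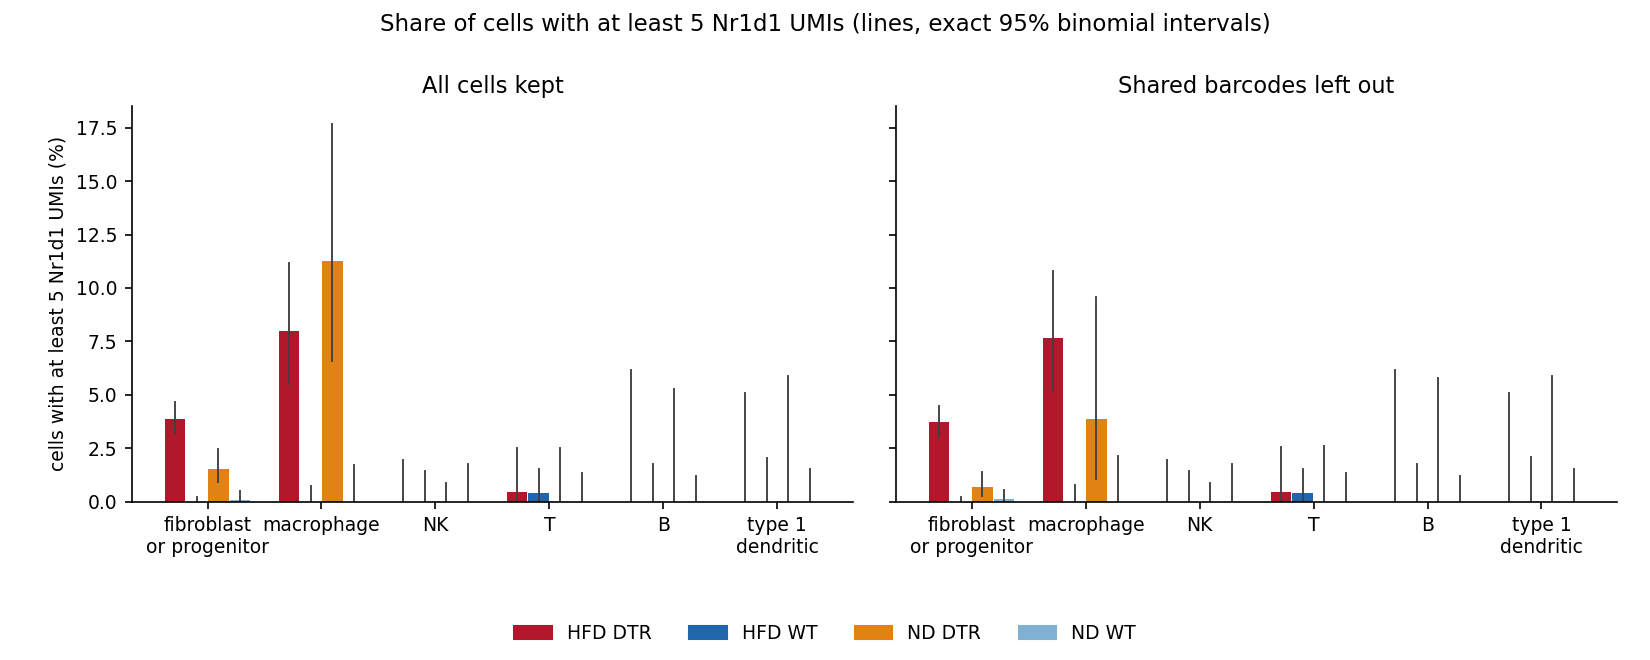
Share of cells with at least 5 Nr1d1 UMIs per class and library, in percent, with exact 95% binomial intervals as lines, over all cells kept (left) and without barcodes found in another library (right). The tallest bars stand in the fibroblast and macrophage gates of the libraries labelled DTR, and the ND DTR macrophage bar is 11.3% on the left and 3.85% on the right. On the left, small bars also stand for T cells in HFD DTR and HFD WT and for fibroblasts in ND WT.

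The same cells held most Dbp and Ciart molecules of their class. In HFD DTR fibroblasts the 109 Nr1d1-rich cells held 6.89% of all UMIs of the class but 77.5% of Ciart, 76.3% of Dbp, 43.0% of Nr1d2 and 38.9% of Tef UMIs. They held 29.9% of Per3, 16.9% of Per2 and 14.2% of Per1 UMIs, and for Bhlhe40 (5.84%) and Arntl (3.60%) less than their share of all UMIs. Dbp was at 738 CPM in those cells and 17.0 CPM in the other fibroblasts of the library, while Arntl was at 16.8 CPM and 33.3 CPM. In ND DTR fibroblasts the 17 cells held 3.30% of all UMIs, 89.1% of Ciart, 70.0% of Dbp and 45.9% of Nr1d2 UMIs. In HFD DTR macrophages the 31 cells held 13.4% of all UMIs, 73.9% of Dbp and 68.6% of Ciart UMIs. In ND DTR macrophages the 16 cells held 23.5% of all UMIs, 97.9% of Dbp and 96.9% of Ciart UMIs. Without shared barcodes, 7 Nr1d1-rich cells were left in ND DTR fibroblasts, with 91.2% of Ciart but 35.9% of Dbp UMIs, and 4 in ND DTR macrophages, with 93.5% of Ciart and 96.3% of Dbp UMIs. On HFD the Dbp shares were then 74.6% in DTR fibroblasts and 70.9% in DTR macrophages.

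**Figure D4:**
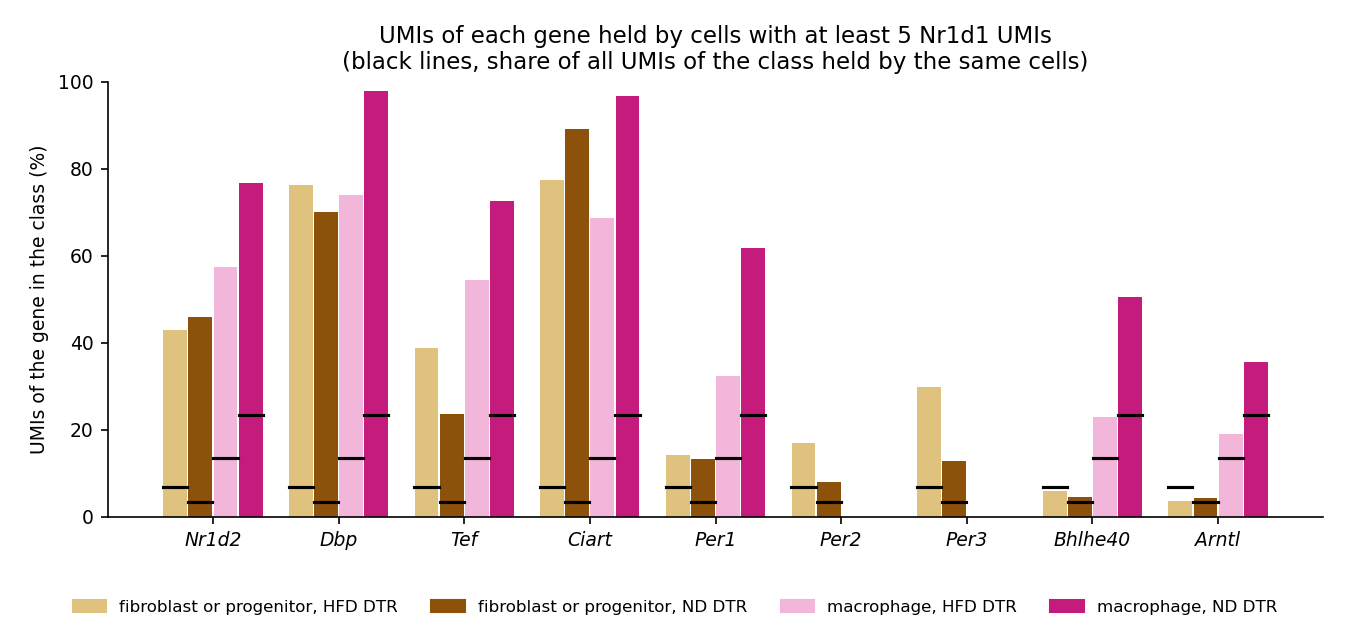
Percent of each gene's UMIs in the fibroblast and macrophage gates of the libraries labelled DTR that lay in the cells with at least 5 Nr1d1 UMIs, with black lines for the percent of all UMIs of the class in those cells. Dbp and Ciart bars reach 68.6% to 97.9%, while Arntl and Bhlhe40 bars lie near the black lines in fibroblasts; genes under 50 UMIs in a class (Per2 and Per3 in macrophages) are not drawn.

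With the Nr1d1-rich cells left out of all libraries, which also takes out cells where the members were high, most ratios were nearer to 0. In fibroblasts the log2 ratio of Dbp was then 2.04 on HFD (17.0 CPM in DTR against 4.14 CPM in WT) and 0.06 (-0.42 to 0.54) on ND (6.73 CPM in DTR against 6.47 CPM in WT). Ciart was at 62 UMIs in HFD DTR against 1 in HFD WT, and at 6 UMIs in ND DTR against 3 in ND WT. Per1 kept a log2 ratio of 1.57 on HFD and 1.29 on ND, and Arntl -0.56 and -0.15. Nr1d2 was at 0.12 and 0.07. In macrophages Dbp was then at 1.40 on HFD, and at 8 UMIs in ND DTR against 9 in ND WT. Ciart was at 1.51 on HFD and at 8 UMIs in both libraries on ND, and Per1 at 0.88 on HFD and 0.45 on ND.

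Leaving out only the cells of shared barcodes moved the HFD values little: in fibroblasts Nr1d1 was then at 3.71, Dbp at 3.93 and Per1 at 1.68. On ND the fibroblast ratio of Dbp was 0.47 (10.7 CPM in DTR against 7.74 CPM in WT), against 1.45 with all cells, and that of Nr1d1 was 2.84. What a barcode found in 2 libraries stands for was not tested.

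Nr1d1-rich cells were then set beside cells of the same gate and library with 0 Nr1d1 UMIs and a depth of at least the 10th percentile of the Nr1d1-rich cells. There were 1284 such cells in HFD DTR and 683 in ND DTR fibroblasts, and 124 in HFD DTR and 32 in ND DTR macrophages. Depth was bounded from below only and not matched. Median UMIs in fibroblasts were 25014 in Nr1d1-rich cells and 16336 in those with 0 on HFD, and 30855 and 14461 on ND. For macrophages they were 19885 and 17499 on HFD, and 35555.5 and 29092 on ND. Values are log2 ratios of mean CPM with 20 added to both, given for fibroblasts on HFD and ND, then macrophages on HFD and ND. Dbp was at 4.77, 4.37, 3.67 and 4.56, Ciart at 2.41, 3.49, 2.90 and 3.95, and Nr1d2 at 2.51, 3.61, 2.32 and 1.84. Tef was at 2.12, 2.04, 2.01 and 1.63, and Per1 at 1.17, 2.30, 1.86 and 2.12. Of the Nr1d1-rich cells, 10 of 17 in ND DTR fibroblasts and 12 of 16 in ND DTR macrophages had shared barcodes. Without those cells, and with 7 and 4 Nr1d1-rich cells left on ND, Dbp was at 4.79, 4.39, 3.69 and 5.35, Ciart at 2.44, 4.50, 2.95 and 5.23 and Nr1d2 at 2.55, 4.27, 2.36 and 2.85. Tef was then at 2.12, 2.39, 2.05 and 2.35, and Per1 at 1.21, 2.93, 1.80 and 2.83. These 5 genes had means over 2-fold higher in all 4 Nr1d1-rich sets, with and without shared barcodes. Per3 was at 1.32, 0.61, 0.42 and 0.58 and Per2 at 0.74, 0.36, 0.25 and 0.43. Arntl was at -0.38, 0.70, 0.34 and 0.39, and Bhlhe40 at -0.22, 0.90, 0.98 and 1.27, so neither kept one sign. The members other than Nr1d1 with a mean of at least 20 CPM over both sets numbered 8, 7, 6 and 7 in the same order, some of them only through the Nr1d1-rich cells. Over 2-fold higher were 6, 5, 5 and 6 of them, where 7.5%, 13.9%, 5.0% and 5.78% of all genes measured were.

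Other clock genes, from a list of 22, were read in the same cells. Cry1, which encodes a partner of the PER proteins, was at 1.36, 1.97, 1.01 and 0.82, and Cry2 at 0.38, 1.25, 1.27 and 0.72. Clock, the partner of BMAL1, was at -0.02, -0.24, 0.28 and 1.00, and its relative Npas2 at -0.08, 0.47, 0.21 and -0.11. Nfil3, which binds the same D-boxes as a repressor, was at -0.63, 0.81, -0.20 and 0.01. Of the measured genes of the list, 3 of 16, 5 of 14, 3 of 12 and 2 of 11 were over 2-fold higher. Immediate early genes, which answer handling and dissociation, were 2-fold higher for 1 of 20, 5 of 20, 1 of 18 and 4 of 19, and 2-fold lower for 4, 0, 0 and 1 of them. Glucocorticoid response genes were 2-fold higher for 2 of 12, 2 of 13, 1 of 9 and 3 of 9, and 2-fold lower for 4, 5, 1 and 0. Hypoxia genes were 2-fold higher for 0 of 7, 2 of 7, 1 of 6 and 1 of 6, and 2-fold lower for 1, 1, 0 and 2. Of all genes measured, 7.5%, 13.9%, 5.0% and 5.78% were over 2-fold higher. Over 2-fold lower were 321 of 6400, 550 of 6194, 149 of 5838 and 154 of 5885.

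**Figure D5:**
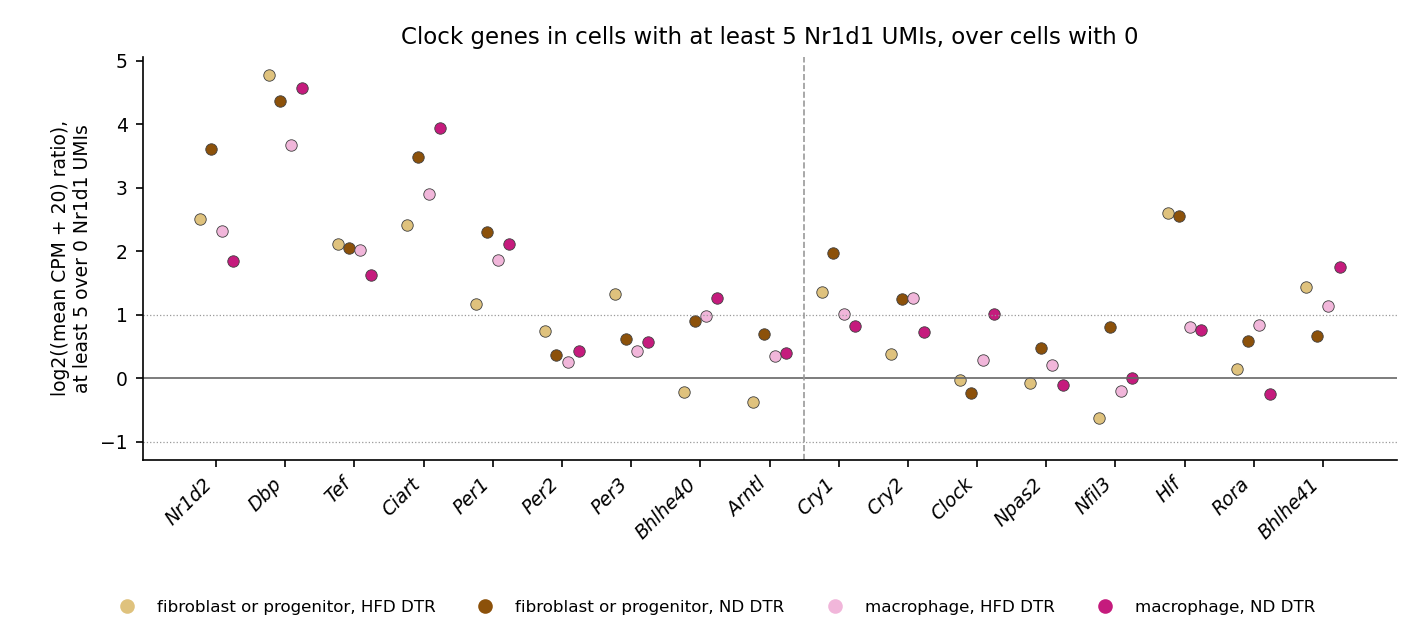
Log2 ratio of mean CPM plus 20 in cells with at least 5 Nr1d1 UMIs over cells with 0 past a minimum depth, not matched for depth. The other members stand left of the dashed line and further clock genes right of it. There is 1 point per gate and library labelled DTR, with dotted lines at 2-fold. All 4 points of Dbp, Ciart, Nr1d2, Tef and Per1 lie above the upper dotted line, while those of Arntl and Clock lie on both sides of 0.

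The markers of the gate were present in these cells, as the gate itself requires, at lower levels in fibroblasts. On HFD the 7 fibroblast markers summed to 13660 CPM in Nr1d1-rich fibroblasts and 46181 CPM in those with 0, and on ND to 14441 CPM in Nr1d1-rich fibroblasts and 37279 CPM in those with 0, with none of the 7 absent. The 7 macrophage markers summed to 61.7 CPM in Nr1d1-rich HFD DTR fibroblasts and 33.5 CPM in those with 0, and on ND to 13.2 CPM and 13.5 CPM, with 5 of the 7 at 0 in the Nr1d1-rich ND DTR fibroblasts. In macrophages the macrophage markers summed to 4982 CPM in Nr1d1-rich cells and 5611 CPM in those with 0 on HFD, and to 4687 CPM in Nr1d1-rich cells and 5885 CPM in those with 0 on ND. The monocyte markers there summed to 36.0 CPM in Nr1d1-rich cells and 237 CPM in those with 0 on HFD, and to 31.6 CPM in Nr1d1-rich cells and 286 CPM in those with 0 on ND. Type 2 dendritic markers summed to 129 CPM in Nr1d1-rich cells and 409 CPM in those with 0 on HFD, and to 190 CPM in Nr1d1-rich cells and 534 CPM in those with 0 on ND. The fibroblast markers there summed to 233 CPM in Nr1d1-rich cells and 297 CPM in those with 0 on HFD, and to 106 CPM and 102 CPM on ND. The median mitochondrial share was lower in all 4 Nr1d1-rich sets. In fibroblasts it was 0.894% in Nr1d1-rich cells and 2.70% in those with 0 on HFD, and 1.03% and 3.54% on ND. In macrophages it was 1.07% in Nr1d1-rich cells and 2.36% in those with 0 on HFD, and 1.23% and 2.57% on ND. The part of these markers, of RNA content or of RNA quality in the clock gene differences was not tested.

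Among all genes, 7 stood among the 50 with the highest ratio in all 4 sets, and they were picked after the values were seen: Dbp, Nr1d2, Ciart, Txnip, Klf10, Ddit3 and H2-Q6. Txnip, which encodes a thioredoxin-binding protein, was at 2.96, 3.80, 2.05 and 2.05, and Klf10, a zinc finger factor, at 2.52, 3.71, 2.22 and 2.39. Ddit3, a stress response factor, was at 1.85, 3.32, 2.34 and 2.79. In fibroblasts the matrix gene Mgp was at -4.18 on HFD and -3.63 on ND, and the Wnt modulator Sfrp1 at -3.64 on HFD and -3.51 on ND.

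Choosing the cells by Dbp in place of Nr1d1 was also tried. At least 5 Dbp UMIs were found in 129 fibroblasts and 17 macrophages of HFD DTR, and in 14 fibroblasts and 10 macrophages of ND DTR. These held 80.9% and 57.8% of the Nr1d1 UMIs of their class on HFD, and 68.5% and 88.9% on ND.

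Within the gates, the high levels were uneven between subsets split by other genes. HFD DTR fibroblasts with a Pi16 or Dpp4 UMI, markers of early progenitors, had Dbp at 51.5 CPM and those without at 85.4 CPM. For Nr1d1 they had 38.3 CPM and 72.5 CPM. In HFD WT the same subsets had Dbp at 4.61 CPM and 3.58 CPM, and Nr1d1 at 3.78 CPM and 3.90 CPM. In ND DTR the order was the other way, with Dbp at 31.0 CPM in those with and 15.6 CPM in those without, and Nr1d1 at 36.7 CPM and 25.2 CPM. Without shared barcodes the ND DTR values were 9.36 CPM and 11.6 CPM for Dbp, and 11.7 CPM and 20.8 CPM for Nr1d1, so the ND order rested on those cells. HFD DTR macrophages with a Trem2 or Gpnmb UMI, markers of lipid-associated macrophages, numbered 327 and had Nr1d1 at 137 CPM. The 61 without had none, with an interval that reached 10.3 CPM. In ND DTR the 115 with had 303 CPM. The 27 without had none, with an interval that reached 14.7 CPM. In HFD WT the levels were 8.64 CPM in those with and 4.04 CPM in those without. Whether such a UMI is seen also depends on a cell's depth, which was not matched, and Nr1d1-rich cells were deep. The part of depth in the macrophage split was not tested. Without shared barcodes the ND DTR macrophages with a Trem2 or Gpnmb UMI numbered 77 and had 121 CPM.

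Diet was compared within each label, where libraries are shared with the comparisons above. In the libraries labelled DTR, fibroblast Dbp was at 66.7 CPM on HFD, against 21.7 CPM on ND, a log2 ratio of 1.62 (1.45 to 1.79). It was the only one of 10 members over 2-fold higher there, where 9.32% of 12515 genes were, and none was 2-fold lower, against 4.46%. Nr1d1 and Ciart were each at 0.85, Per1 at 0.83, Per3 at 0.82 and Arntl at -0.25. In macrophages labelled DTR the order was opposite, with Ciart at -1.90 (-2.23 to -1.59), Dbp at -1.47 (-1.71 to -1.24) and Nr1d1 at -1.12 (-1.27 to -0.96). These were 3 of 8 members 2-fold lower on HFD, where 1.37% of 8537 genes were, and none was 2-fold higher, against 1.79%. Without shared barcodes the values were -1.56 for Ciart, -0.06 for Dbp and 0.15 for Nr1d1. With Leiden clusters in place of the gate Dbp was at 1.502. Without the cell holding most UMIs of each gene in each library, the macrophage values were -0.95 for Ciart, -0.50 for Dbp and -0.40 for Nr1d1. No member of the 2 measured in at least 4 classes had a median past 2-fold (0.822% of 4500 genes) or a single direction (18.6%).

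In the libraries labelled WT the diets lay closer. In fibroblasts none of 9 members was past 2-fold either way, where 3.29% of 11128 genes were higher and 3.92% lower on HFD. Dbp was at 4.14 CPM on HFD, against 7.95 CPM on ND, a log2 ratio of -0.94 (-1.40 to -0.48). Per3 was at -0.66, Tef at -0.68, Per1 at 0.59, Bhlhe40 at 0.55 and Nr1d1 at 0.46 (-0.18 to 1.14). In macrophages Nr1d1 was at 50 UMIs on HFD, against 6 on ND, a log2 ratio of 1.23 (0.01 to 2.74). It was the only one of 5 members past 2-fold, where 6.61% of 8249 genes were higher and 3.21% lower. Of the 5 members measured in at least 4 classes none had a median past 2-fold (0.621% of 6437 genes). Nr1d1 alone had one direction in every class (10.8%), with 1.88 (1.00 to 2.86) in endothelial cells and 0.47 in T cells.

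Of the clock genes on the list of 22, which holds no member, those measured in at least 4 classes numbered 6 on HFD and 10 on ND, and none had a median DTR over WT ratio past 2-fold. The median of their medians was 0.00 on HFD and 0.08 on ND, beside 0.12 and 0.10 over all genes. Clock had a median of -0.39 over 4 classes on HFD and -0.16 over 7 classes on ND, and Nfil3 of 0.12 and -0.05. Cry1 had medians of 0.12 and 0.11 over 3 classes, and Cry2 of 0.14 and -0.69 over 2 classes. Npas2, which can stand in for Clock, was measured in fibroblasts only, at -1.40 on HFD and -0.02 on ND. In macrophages 4 of 17 measured were over 2-fold higher on HFD and 3 of 11 on ND, where 10.3% and 16.2% of all genes were, and 1 and 0 were 2-fold lower. In fibroblasts 1 of 19 on HFD and 0 of 19 on ND were over 2-fold higher, where 17.0% and 6.83% of all genes were, and 1 and 0 were 2-fold lower. Named after the values were seen, Bhlhe41, a relative of Bhlhe40, was at 1.90 on HFD and 0.63 on ND in fibroblasts, and at 1.34 on HFD and 2.96 on ND in macrophages. Wee1, a cell cycle kinase, was at 0.95 and -0.07 in fibroblasts and at 0.61 and 2.81 in macrophages, on HFD and ND in that order. Usp2, a ubiquitin protease, was at 0.61 in fibroblasts and 2.17 in macrophages on HFD, and at 0.44 in fibroblasts on ND. Nampt, an enzyme of NAD synthesis under clock control, was past 2-fold by its median in another comparison, HFD over ND in the libraries labelled DTR, at -1.04 and lower in 5 of 5 classes.

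Lists of other signals that reach clock genes were counted beside them in the DTR over WT comparisons. Of 16 glucocorticoid response genes, 5 were over 2-fold higher and 3 over 2-fold lower in fibroblasts on HFD, and 3 and 2 on ND. Of 20 immediate early genes, 3 on HFD and 2 on ND were over 2-fold higher in fibroblasts and none 2-fold lower. In macrophages 6 on HFD and 7 on ND were over 2-fold higher, and 0 and 1 were 2-fold lower. Of all genes measured, 17.0% on HFD and 6.83% on ND were over 2-fold higher in fibroblasts, and 10.3% on HFD and 16.2% on ND in macrophages. Of the hypoxia genes measured, 2 of 10 on HFD and 1 of 9 on ND were over 2-fold higher in fibroblasts.

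The genes whose levels followed Dbp most closely were ranked over 24 points, 6 classes in 4 libraries, each centred within its class. The points share libraries, so the values are descriptions. Of the 4547 genes past a level minimum of 20 CPM, those with the highest Pearson correlation with Dbp were 9930111J21Rik2 at 0.925, Nup50 at 0.884, Ddit3 at 0.877, Nab2 at 0.866 and Klf10 at 0.863. Among the members, Nr1d1 was at 0.949, Ciart at 0.863, Per1 at 0.796 and Nr1d2 at 0.756, while Tef was at 0.471, Arntl at 0.115 and Per2 at -0.08. Of the members only Per1 and Bhlhe40 passed the level minimum, so the others were not ranked. For Arntl the most like were Ahsa1 at 0.703, Celf2 at 0.687, Golga4 at 0.682, Atxn7 at 0.680 and Anxa11 at 0.674. None of them is a clock gene, but nothing is read from that, since most members could not be ranked.

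In GRCm38 (mm10), Nr1d1 (ENSMUSG00000020889) spans chr11:98767932-98775333 on the minus strand and shares 1075 bases, exons included, with Thra. Dbp (ENSMUSG00000059824) spans chr7:45705088-45710203 on the plus strand, and this span shares 737 bases, exons included, with that of Sphk2 on the opposite strand. Ciart (ENSMUSG00000038550) spans chr3:95878503-95882251 on the minus strand, and Per1 (ENSMUSG00000020893) chr11:69095217-69109960 on the plus strand. Tef, Arntl and Bhlhe40 also overlap exons of a gene on the opposite strand, so their reads could be split with that gene if strand was not used.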

How the data were processed

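Single-cell 3′ RNA libraries made with 10x Genomics v3 chemistry were deposited by the authors as 1 matrix of whole-number UMI counts with no normalization (31053 genes). Per the submitters' processing notes, Cell Ranger 3.1.0 and mm10 were used. The library of each cell was read from its barcode suffix and the order of the deposited aggregation list; no other file states it. Members and lists were chosen with earlier results of these data known. Cells under 300 genes or over 10% mitochondrial UMIs were left out, and Scrublet calls (0.690% to 1.37% per library, against a labelled multiplet rate of 5.4%) were removed. A cell was gated to a class with at least 3 of its markers, 40% of the panel and 1.5 times the share of any other panel, limits set after the data were seen. With 1 library per group no test was possible. UMIs were summed per class and library and divided by the class total (CPM), with exact Poisson intervals; log2 ratios have conditional exact binomial intervals and shares Clopper-Pearson intervals, all at 95%. A library at 0 was set to a floor of 3 UMIs for ratios. A gene needed 50 UMIs over both libraries and a class 50 cells in each. On simulated counts for ND DTR over ND WT in fibroblasts (11014 genes, 200 changed), 100% of changed genes and 0.0277% of the others passed 2-fold, and 95.5% of intervals held the true ratio. These counts were Poisson draws of class sums, with planted changes well past 2-fold, so they check the arithmetic only. UMIs held by few cells, as for Nr1d1, were not simulated. The genes named were the members, the further clock genes Clock, Npas2, Cry1, Cry2 and Nfil3, any of that list with a median past 2-fold, the 5 genes most like Dbp and Arntl, and Siglec1; others named were picked after their values were seen. Gene spans are from GENCODE M21. Sets of cells picked by Nr1d1 or Dbp and the removal of shared barcodes were added after the data were seen. Python 3.11.15, numpy 2.4.6, pandas 2.3.3, scipy 1.17.1, scanpy 1.11.5, leidenalg 0.10.2 and matplotlib 3.10.9 were used.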

Additional observations from a re-analysis of the deposited data

Results flagged for a closer look

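Nr1d1 in the macrophage gate differed from HFD to ND in opposite directions by label, each past 2-fold. HFD over ND was at a log2 ratio of -1.12 in the libraries labelled DTR (626 UMIs on HFD against 763 on ND) and at 1.23 in those labelled WT (50 UMIs on HFD against 6 on ND). The difference between these ratios was not tested, since each group is 1 library. Without the cells whose barcode also occurs in another library the DTR ratio was 0.15.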

How the results depend on the processing

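No paired analysis was possible because each group is 1 library and the replicate numbers name runs of the same library. Of the members' ratios in single classes, 327 kept within their counting interval and 52 moved beyond it in fibroblasts over the alternatives tried, and 206 and 47 in macrophages. Leaving out the Nr1d1-rich cells, which selects on a member, is not counted there. Changes of sign were counted only for ratios past 2-fold with the main settings. The 2 counted were Dbp (1.502 with Leiden clusters in place of the gate) and Nr1d1 (0.15 without shared barcodes), both for HFD DTR over ND DTR in macrophages. Smaller ratios that changed sign stand under the counts above. The count of members whose median over all classes measured was past 2-fold was 3 for HFD DTR over HFD WT, 3 for ND DTR over ND WT, 0 for HFD WT over ND WT and 1 for HFD DTR over ND DTR. At 1.5-fold these were 6, 5, 4 and 3. Members measured in any number of classes were counted here. The share over all genes was not taken under that rule, so nothing is read from these counts. The first 2 counts stayed within 1.5 times under the other alternatives. For HFD WT over ND WT the count was 3 with each cell scaled to the same total, 2 without fibroblasts, and 1 with the stricter cell filter, without T cells or without shared barcodes. For HFD DTR over ND DTR it was 0 with cells scaled to the same total, a minimum of 100 UMIs, cells thinned to 2000 UMIs or NK cells left out, 2 without shared barcodes and 3 without fibroblasts. Members of one direction in every class numbered 0, 0, 1 and 0 in the same order of comparisons. For HFD DTR over HFD WT this was 1 with trimmed-mean scaling, cells scaled to the same total, the stricter filter, minimums of 20 or 100 UMIs, Leiden clusters, thinning or B cells left out. For ND DTR over ND WT it was 2 with a minimum of 20 UMIs, and 1 with Leiden clusters, thinning or endothelial cells left out. For HFD WT over ND WT it was 0 with cells scaled to the same total, thinning, or T cells, endothelial cells, fibroblasts or macrophages left out, and 2 without group 2 innate lymphoid cells. For HFD DTR over ND DTR it was 1 with cells scaled to the same total, a minimum of 20 UMIs, Leiden clusters or macrophages left out. Removal of shared barcodes was chosen after seeing the data. The limits are 1 library per group, labels left unsure by a higher Siglec1 in the libraries labelled DTR, and an hour of collection that is not given. A further limit is few UMIs outside fibroblasts and macrophages. At under 50 UMIs of Nr1d1, Dbp or Ciart, mostly no ratio was taken in NK, B or dendritic cells, and a small difference there could not be detected. The cause of the changes listed was not tested.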

Other observations

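Cells that met no gate also held Nr1d1-rich cells, 54 of 1507 in HFD DTR, 5 of 945 in HFD WT, 13 of 918 in ND DTR and 2 of 1449 in ND WT. The labels thus stood in the same order there as in the gated fibroblasts and macrophages, and no cell type is given to these cells.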
